A study of Mus musculus with 18 samples.

Results

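Regulatory T (Treg) cells of mice whose T cells lack both miR-23 clusters, called DKO, were compared with Treg cells of WT mice, by RNA sequencing of 3 libraries per group. The members were chosen by sample and by expression level alone: they are the 11520 entries of 23953 in the deposited table that reached 1 RPKM in at least 3 of the series' 18 libraries. RPKM values are read numbers corrected for transcript length (in kilobases) and for how many reads a library had mapped. All mice were of the C57BL/6 background, and the labels give the genotypes as "DKO Tg" and "WT Tg". The deletion is stated to be restricted to T cells, and the series' title names CD4cre. The cells were sorted by flow cytometry as CD4+CD25hi, so Foxp3 itself was not the sorting criterion. In the other 4 groups T cells overexpress the entire cluster (cluster Tg) or miR-23, miR-24 or miR-27 alone, with 3 libraries each. The age and sex of the mice and the number of animals behind a library are not given in the sources used here. No label says that the 3 libraries of a group came from separate animals, so p-values measure only the spread between these libraries. Fewer cells of a kind and less RNA per cell cannot be told apart in such bulk samples.

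The miR-23 clusters are a pair of paralogous loci, each encoding a miR-23, a miR-27 and a miR-24 microRNA in one primary transcript. MicroRNAs guide Argonaute proteins to messenger RNAs, mostly through pairing of bases 2 to 8 of the microRNA, the seed, with a matching site in the 3′ untranslated region (UTR), and so lower the stability and translation of the bound messenger. Loss of a microRNA is therefore expected, from textbook knowledge, to leave mRNAs that carry its sites at somewhat higher levels. In T cells these microRNAs are known as regulators of helper cell cytokines and of Treg function.

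The mature sequences define which sites were looked for, so they are shown here from the RefSeq records on GRCm38.p6, 5′ to 3′, with the seed in capitals. Genes of the miR-23a cluster lie on chromosome 8 and those of the miR-23b cluster on chromosome 13.
miR-23a-3p, chr8:84208563-84208583, plus strand: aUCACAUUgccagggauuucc
miR-27a-3p, chr8:84208727-84208747, plus strand: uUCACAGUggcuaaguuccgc
miR-24-3p, chr8:84208875-84208896, plus strand: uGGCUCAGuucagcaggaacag
miR-27b-3p, chr13:63300760-63300780, plus strand: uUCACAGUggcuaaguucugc
The miR-27a and miR-27b seeds are identical, and miR-24-3p is the same molecule from either cluster (its other copy is at chr13:63301251-63301272). Sites complementary to these seeds read AATGTGA for miR-23, ACTGTGA for miR-27 and CTGAGCC for miR-24. The miR-23 and miR-27 sites thus differ only at their second base.

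Libraries of a group differed among themselves. Estimated depth was 27.3 to 31.5 megareads in DKO and 25.2 to 31.8 megareads in WT, and 10757 to 10902 genes reached 1 RPKM in DKO and 10710 to 10833 in WT. Correlations of log2 values were 0.907 to 0.933 among DKO libraries, 0.926 to 0.933 among WT libraries and 0.919 to 0.940 between them. Library 1 carried Y-linked transcripts and no Xist above 0.0631 RPKM in both genotypes, and libraries 2 and 3 the reverse, so sex was balanced between the groups. Cell cycle genes summed to 488, 641 and 806 RPKM in DKO libraries 1, 2 and 3 and to 514, 671 and 725 RPKM in WT libraries 1, 2 and 3. Immediate-early and other T cell receptor-induced genes summed to 5621, 7523 and 4149 RPKM in DKO and to 6632, 5999 and 3733 RPKM in WT. Both sums thus differed more between libraries than between genotypes, and library 3 had the lowest immediate-early level in both groups. Cd4 was at 309, 317 and 290.3 RPKM in DKO and 312, 308 and 288 RPKM in WT, and among CD8 T cell markers Cd8a was at most 2.78 RPKM and Cd8b1 at 12.6 to 15.6 RPKM in the 6 libraries. Eomes, a T-box factor of CD8 T and NK cells, was the CD8 T cell marker with separate groups, at 2.74, 3.31 and 2.53 RPKM in DKO and 2.23, 2.06 and 1.94 RPKM in WT.

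RNA from the deleted loci checked the labels. Hairpin entries are short, were read with a library kit for long RNA, and several are listed at 0 also in WT, so an entry at 0 is given as listed and no fold is computed. Mir3074-1, annotated on the minus strand at chr13:63301199-63301283 over the miR-24 hairpin of the miR-23b cluster, was listed at 0 in all 3 DKO libraries and at 191, 112 and 116 RPKM in the WT libraries. The groups did not overlap, although the entry missed the threshold after adjustment over all genes (limma adjusted p = 0.23). The entries of the miR-23a cluster summed to 0, 11.7 and 0 RPKM in DKO and to 517, 300.0 and 71.6 RPKM in WT, again without overlap. An exact two-sided permutation test gave p = 0.1 for either sum, the smallest value that 3 against 3 libraries allow. Within that cluster, Mir27a was listed at 0 in each DKO library and in 1 of the 3 WT libraries, at 347 and 145 RPKM in the others. Mir23b, Mir27b and Mir24-1 were listed at 0, or at values that round to it, in all 6 libraries, so they carry no information on the deletion. Mir3074-1 was also listed at values that round to 0 in miR-23 Tg libraries 2 and 3, where no deletion is labelled.

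Of the 11520 genes, 2 passed the threshold of a Benjamini-Hochberg adjusted p under 0.05 in limma, and both were higher in DKO (0.0174% of genes tested). None was lower (0%). At an unadjusted p under 0.05 there were 161 higher genes (1.4%) and 93 lower genes (0.807%). The 3 DKO libraries lay wholly above the 3 WT libraries for 382 genes (3.32%) and wholly below for 314 (2.73%). The median of all log2 fold changes was -0.0041. A fold change here is the difference of group means of log2(RPKM + 0.5), so it understates the change of genes near the pseudocount. For 10756 genes (93.4%) the 95% interval of the fold change lay inside 2-fold in both directions. In the same model, DKO against cluster Tg gave 3072 called genes in either direction (26.7%), of which 1338 were higher and 1734 lower in DKO.

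**Figure D1:**
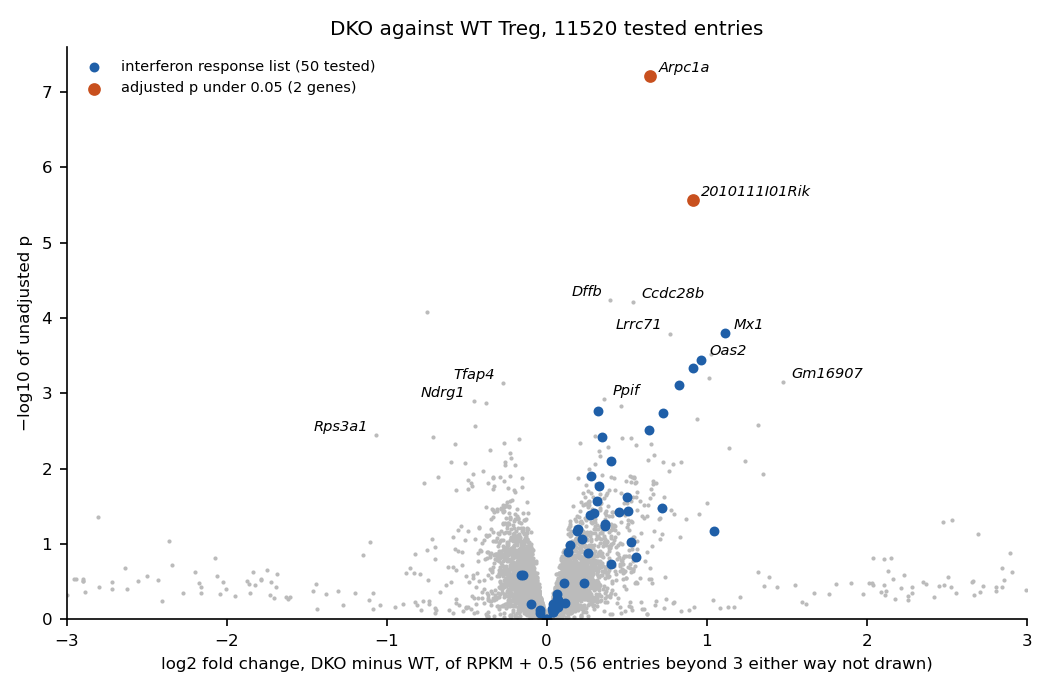
Log2 fold change of DKO over WT (x axis) against −log10 of the unadjusted limma p (y axis) for the 11520 tested entries, with 56 entries beyond a log2 fold change of 3 left out. The 2 called genes (orange) stand above all others, and most of the 50 interferon response genes (blue) lie to the right of 0.

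Arpc1a was the gene with the smallest p. It encodes a subunit of the Arp2/3 complex, which nucleates branched actin filaments, and its annotated body (ENSMUSG00000029621.14) spans chr5:145083830-145108761 on the plus strand. Its level was 68.0, 70.0 and 75.2 RPKM in the DKO libraries and 46.1, 44.4 and 44.9 RPKM in the WT libraries. All DKO values lay above all WT values, and the WT values spread by under 2 RPKM. The mean was 71.1 ± 3.72 RPKM in DKO against 45.1 ± 0.878 RPKM in WT (SD, n = 3), a log2 fold change of 0.65 (SE 0.06, limma adjusted p = 0.00071), or 1.57-fold. Leaving out any single library kept it past the threshold, with adjusted p from 0.0028 to 0.0098. With the spread estimated from the 6 DKO and WT libraries alone the same difference had an adjusted p of 0.13.

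Arpc1a levels were ordered across the 6 genotypes. The mean was 31.0 ± 1.21 RPKM in cluster Tg, 32.2 ± 0.207 in miR-24 Tg, 39.2 ± 1.52 in miR-23 Tg, 45.1 ± 0.878 in WT, 54.7 ± 4.76 in miR-27 Tg and 71.1 ± 3.72 in DKO (SD, n = 3 each). Only the neighbours cluster Tg and miR-24 Tg overlapped. Against the same WT libraries, the log2 difference was -0.53 in cluster Tg (limma adjusted p = 0.0001), -0.48 in miR-24 Tg (0.00058), 0.27 in miR-27 Tg (0.0058) and -0.20 in miR-23 Tg (0.17). DKO exceeded cluster Tg by a log2 difference of 1.18 (limma adjusted p = 1.2e-07).

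The annotated 346-base 3′ UTR of Arpc1a holds none of the 3 sites. The rest of the same transcript (ENSMUST00000031625.14) was therefore searched, and it holds a miR-23 match and a miR-24 match, shown with their surroundings, mRNA strand, build GRCm38, and the match in capitals.
Arpc1a, miR-23 match, chr5:145108409-145108415: ggtctccggatAATGTGAagccgagcgagc
Arpc1a, miR-24 match, chr5:145092466-145092472: cccagatcgccCTGAGCCccaataaccatg
The miR-23 match begins at base 1280 of the transcript and ends with the stop codon, which occupies bases 1284 to 1286. It is followed by an A, the 8-base form of the site. The miR-24 match begins at base 246, upstream of the stop codon. Matches of this kind are common in general: 13.8% of the 10590 tested genes with an annotated 3′ UTR hold the miR-23 letters before the UTR, and 23.6% hold the miR-24 letters. Overlap with the stop codon is rarer, with 32 genes (0.302%) for miR-23, whose median log2 fold change was -0.02. Of these 32 genes, 1, Arpc1a itself, had DKO wholly above WT and 1 wholly below, against 3.32% and 2.73% of all genes. A match is a description of the letters and not evidence of binding.

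The other subunits of the Arp2/3 complex, chosen after the Arpc1a value was seen, did not pass the test. Arpc1b, the paralogous subunit encoded 5454 bases downstream, was at 183, 230.5 and 209.7 RPKM in DKO and 199.98, 213 and 204 RPKM in WT, a log2 fold change of 0.008 with a 95% interval from -0.21 to 0.23. Actr2, Actr3, Arpc2, Arpc3, Arpc4, Arpc5 and Arpc5l had log2 fold changes from -0.08 to 0.08, and their libraries overlapped. Of 13 tested genes within 250 kb of Arpc1a, Arpc1a was the only one with an unadjusted p under 0.05.

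2010111I01Rik was the other called gene. It is the host of the miR-23b cluster, annotated at chr13:62964893-63326096 on the plus strand, and it encodes an aminopeptidase known as Aopep. In the transcript with its longest 3′ UTR (6 exons), Mir23b, Mir27b and Mir24-1 all lie in intron 5 (chr13:63298857-63323778). The gene was at 93.9, 92.2 and 114 RPKM in DKO and 62.2, 47.8 and 49.0 RPKM in WT. The groups did not overlap, with a log2 fold change of 0.91 (SE 0.12, limma adjusted p = 0.015), or 1.89-fold. Its call was lost without DKO library 1, DKO library 3, WT library 2 or WT library 3, with adjusted p of 0.058, 0.077, 0.16 and 0.11, and the log2 fold change then ranged from 0.82 to 0.96. With the spread estimated from the DKO and WT libraries alone its adjusted p was 0.67. In the other genotypes the means ran from 57.8 RPKM in miR-23 Tg to 70.4 RPKM in cluster Tg, where the difference from the same WT libraries was 0.41 (log2, limma adjusted p = 0.026). WT thus had the lowest mean of all genotypes. WT library 2 and WT library 3 lay below every library of the other genotypes, the lowest of which was at 51.0 RPKM in miR-23 Tg.

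Gm16907, a long noncoding RNA annotated on the opposite strand within the host gene (chr13:63289601-63297147), lies 3337 bases before Mir23b. It was at 46.6, 32.0 and 18.5 RPKM in DKO and 12.95, 11.05 and 8.19 RPKM in WT. No DKO library overlapped a WT library, but the 3 DKO values themselves spread widely, and the log2 fold change of 1.48 did not pass after adjustment (limma adjusted p = 0.55). The strand setting of the authors' counting is not given in the sources used here, so reads of the host and of its antisense neighbour cannot be told apart with certainty. Fancc, which also overlaps the host on the minus strand, was at 7.76, 8.82 and 8.96 RPKM in DKO and 8.36, 8.37 and 8.06 RPKM in WT. Ptch1, the Hedgehog receptor gene 207045 bases from the cluster, was at 13.7, 13.4 and 7.89 RPKM in DKO and 12.2, 12.99 and 10.3 RPKM in WT. Both sets of values overlapped. The host and Gm16907 thus had separate groups at this locus while Fancc and Ptch1 did not. Around the miR-23a cluster, 16 tested genes other than microRNAs lie within 250 kb, and 1 of them had an unadjusted p under 0.05. That was Podnl1, at 14.3, 19.04 and 16.6 RPKM in DKO and 11.8, 11.9 and 7.90 RPKM in WT (log2 fold change 0.65, limma adjusted p = 1). Zswim4, the nearest gene to the miR-23a cluster at 1757 bases, was at 8.02, 8.42 and 5.85 RPKM in DKO and 7.48, 8.10 and 6.25 RPKM in WT.

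**Figure D2:**
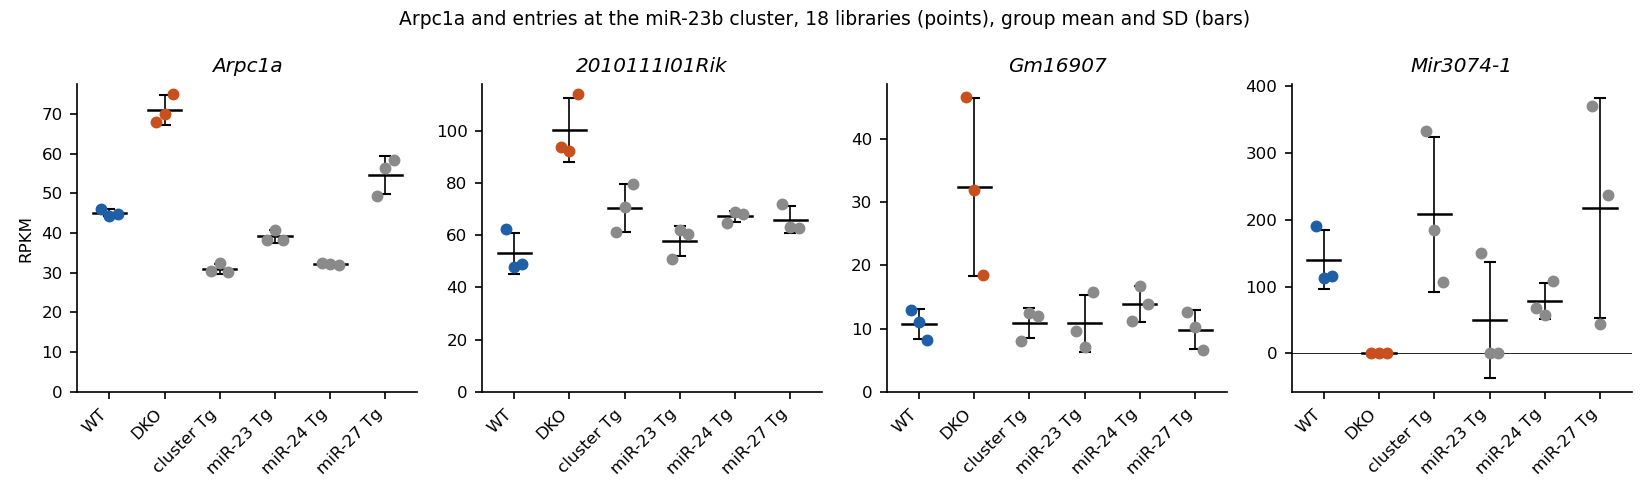
RPKM (y axis) of Arpc1a and of 3 entries at the miR-23b cluster in the 18 libraries, by genotype (x axis). Points are libraries, and the bars are the group mean with its SD over 3 libraries. DKO is the highest group for Arpc1a, 2010111I01Rik and Gm16907, and Mir3074-1 is listed at 0 in its 3 libraries.

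The genes with the next smallest p did not pass the threshold and are given as values. Small RNAs, predicted genes and clone entries were left out of this ranking. Dffb encodes the nuclease that cuts DNA into fragments during apoptosis. It was at 13.9, 15.5 and 14.9 RPKM in DKO and 11.1, 11.3 and 10.9 RPKM in WT, with no overlap (log2 fold change 0.40, limma adjusted p = 0.18). Its mean was 6.23 RPKM in cluster Tg, 5.02 in miR-27 Tg, 9.51 in miR-24 Tg and 12.8 in miR-23 Tg, so that DKO was the highest of the 6 genotypes and miR-27 Tg the lowest. Ccdc28b, a gene of the basal body of cilia, was at 14.8, 15.7 and 17.7 RPKM in DKO and 11.7, 9.21 and 11.8 RPKM in WT, also with no overlap (log2 fold change 0.54, limma adjusted p = 0.18). Its mean was 21.9 RPKM in cluster Tg and 19.96 RPKM in miR-27 Tg, both above DKO. Each of these genes holds a single miR-27 site, and Ppif, described below, holds sites for 2 families. Genes with DKO wholly below WT hold sites as well, among them Ndrg1, F2rl1 and Fas, described below, whose sites are not printed. Sites of Dffb, Ccdc28b and Ppif are printed with those of Oas2, Ifit3, Glrx and Maf, described below. All are sites in genes with DKO wholly above WT that did not pass the test, mRNA strand, build GRCm38, with the site in capitals.
Dffb, miR-27, chr4:153965266-153965272, minus strand: tgaacttggccACTGTGAtgtgtgtggggt
Ccdc28b, miR-27, chr4:129619349-129619355, minus strand: ctcctcttcaaACTGTGAattttacggatt
Ppif, miR-27, chr14:25700171-25700177, plus strand: ccctcctggtcACTGTGAatcctgctggct
Ppif, miR-23, chr14:25700269-25700275, plus strand: tctttctgctcAATGTGAattcccgtggtg
Ppif, miR-23, chr14:25700437-25700443, plus strand: tgttcatctcaAATGTGAtaaataaatcct
Glrx, miR-23, chr13:75849935-75849941, plus strand: cagaaaaatcaAATGTGAaatacaaaattg
Oas2, miR-24, chr5:120730808-120730814, minus strand: cccaagtaaggCTGAGCCttttttctgcct
Ifit3, miR-27, chr19:34588460-34588466, plus strand: ctcagctctgtACTGTGAgacagatgtgct
Maf, miR-23, chr8:115704991-115704997, minus strand: aaggaaaaaaaAATGTGAaatgctatagac
The Ccdc28b site, the Ppif miR-27 site, the upstream Ppif miR-23 site and the Glrx and Maf sites are followed by an A, which the other sites shown are not.

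A further 3 of the 8 genes so ranked on the higher side came from a 962-kb stretch of chromosome 3. Dclk2, a doublecortin-like kinase, was at 14.1, 11.2 and 6.35 RPKM in DKO and 5.16, 4.18 and 4.77 RPKM in WT. Cd1d2, a lipid-presenting molecule, was at 3.52, 2.95 and 1.57 RPKM in DKO and 0.977, 0.831 and 1.27 RPKM in WT. Lrrc71 was at 1.15, 1.26 and 1.15 RPKM in DKO and 0.676, 0.416 and 0.390 RPKM in WT. DKO lay above WT in each, with limma adjusted p of 0.39, 0.55 and 0.23. Dclk2 passed the threshold without DKO library 3 (adjusted p = 0.0078). The rest of the 8 were the interferon-induced genes Mx1, Oas2 and Ifit3.

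On the lower side, the 8 genes of the same ranking also did not pass. Tfap4, a helix-loop-helix transcription factor, was at 9.89, 9.23 and 10.1 RPKM in DKO and 11.5, 11.995 and 12.1 RPKM in WT (log2 fold change -0.27, limma adjusted p = 0.55). Ndrg1, a stress-responsive gene linked to T cell anergy, was at 8.72, 9.13 and 7.66 RPKM in DKO and 12.4, 11.2 and 11.9 RPKM in WT. Hvcn1, a voltage-gated proton channel, was at 41.6, 43.4 and 38.2 RPKM in DKO and 48.6, 49.9 and 49.6 RPKM in WT. Rps3a1, a ribosomal protein gene with many near-identical copies and so uncertain here, was at 115, 109.9 and 267 RPKM in DKO and 276, 300.4 and 375 RPKM in WT. The other 4 were Lhfpl1, Paip2b, Ptger3 and F2rl1, with log2 fold changes from -0.71 to -0.17. All 8 had DKO libraries wholly below WT libraries, and of the 8 Ndrg1 alone holds a miR-23 site and F2rl1 alone a miR-24 site.

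Genes reported elsewhere as targets of the 3 microRNAs were then read as lists, and no member of the 3 lists passed the threshold in either direction. For miR-23, 13 of 20 tested members had a log2 fold change above 0, with a median of 0.03. Ppif, the mitochondrial cyclophilin D that opens the permeability transition pore, was at 28.5, 32.8 and 33.9 RPKM in DKO and 25.8, 23.1 and 24.8 RPKM in WT, with no overlap (log2 fold change 0.36, limma adjusted p = 0.81). It was at a mean of 9.21 RPKM in cluster Tg, 9.07 in miR-27 Tg, 24.1 in miR-24 Tg and 19.6 in miR-23 Tg, again with DKO highest. Prdm1, the transcription factor Blimp-1 of effector Treg cells, was at 9.49, 13.5 and 8.70 RPKM in DKO and 7.01, 7.37 and 6.02 RPKM in WT. Fas, the death receptor, lay the other way at 51.4, 46.8 and 47.1 RPKM in DKO and 53.6, 54.2 and 54.8 RPKM in WT, and its 3′ UTR holds a miR-23 site.

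For miR-24, 9 of 22 tested members were above 0 and 13 below, with a median of -0.01. Top1, Furin and Casp9 had log2 fold changes of 0.13, 0.26 and 0.14, and E2f2 of -0.31. Il4, the type 2 helper cytokine, was at 1.80, 1.88 and 1.59 RPKM in DKO and 1.12, 0.961 and 1.12 RPKM in WT, with no overlap but a 95% interval of the log2 fold change from -0.38 to 1.43. Bcl2l11, which encodes the death-promoting protein Bim and holds 2 miR-24 sites, was at 27.05, 25.9 and 21.0 RPKM in DKO and 22.98, 22.1 and 32.5 RPKM in WT. The Bcl2l11 values overlapped.

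For miR-27, 18 of 24 tested members were above 0 and 6 below, with a median of 0.04. Nfe2l2, the antioxidant transcription factor Nrf2, was at 19.9, 18.3 and 20.7 RPKM in DKO and 15.8, 15.1 and 16.5 RPKM in WT, with no overlap (log2 fold change 0.30, limma adjusted p = 1). Tgfbr3, a co-receptor for TGF-beta, was at 5.07, 6.37 and 4.46 RPKM in DKO and 3.93, 3.75 and 4.42 RPKM in WT. Il10, the suppressive cytokine, was at 18.8, 46.1 and 18.4 RPKM in DKO and 22.9, 25.4 and 6.86 RPKM in WT, so that its spread within a group exceeded the difference between groups. Rel, the NF-kB subunit c-Rel needed for Treg development, was at 41.1, 36.9 and 19.5 RPKM in DKO and 30.1, 34.9 and 26.5 RPKM in WT, and the 95% interval of its log2 fold change ran from -0.62 to 0.68. Gata3, Runx1 and Zbtb10 had log2 fold changes of 0.11, 0.02 and -0.06, with overlapping libraries.

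Sites in the longest annotated 3′ UTR (GENCODE M21, at least 50 bases) were counted for 10590 tested genes. Of these, 1733 (16.4%) hold a miR-23 site, 2020 (19.1%) a miR-24 site and 1819 (17.2%) a miR-27 site. The median log2 fold change of DKO over WT was -0.0079 for genes with no miR-23 site, 0.0080 for those with 1 and 0.0165 for those with at least 2. For miR-27 the corresponding medians were -0.0080, 0.0099 and 0.0208, and for miR-24 they were -0.0062, 0.0012 and 0.0028. Genes with an 8-base site (the 7 bases followed by an A) had medians of 0.0170 for miR-23, 0.0038 for miR-24 and 0.0241 for miR-27.

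Grouped by how many of the 3 families have a site, the median was -0.0116 for 6287 genes with none, 0.0004 for 3193 with 1, 0.0146 for 951 with 2 and 0.0313 for 159 with all 3. The share with a log2 fold change above 0 was 44.6%, 50.1%, 56.4% and 63.5% in the same order. Among genes with a 3′ UTR, an unadjusted p under 0.05 was found on the higher side for 138 (1.3%) and on the lower side for 75 (0.708%). In the group with all 3 families these numbers were 6 and 0 of 159, and in the group with none 74 and 52 of 6287.

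3′ UTR length moves with the number of sites, from a median of 723 bases with no family to 4057 bases with all 3. The genes were therefore also split by UTR length into 3 classes of near-equal size (50 to 684, 685 to 1808 and at least 1809 bases). The median for genes with a miR-23 site against those without was 0.0055 against -0.0121 in the shortest class, 0.0096 against -0.0057 in the middle class and 0.0118 against -0.0047 in the longest. For miR-27 the pairs were -0.0008 against -0.0120, 0.0132 against -0.0055 and 0.0114 against -0.0051. For miR-24 they were 0.0066 against -0.0124, 0.0040 against -0.0047 and 0.0002 against 0.0005, so in the longest class the order did not hold. The libraries differed more than the groups of genes. Relative to the WT mean, genes with a miR-23 site had medians of 0.0793, 0.0250 and -0.0528 in DKO libraries 1, 2 and 3, and those with no site -0.0092, 0.0046 and 0.0032. These medians mix UTR lengths. In the longest class they were 0.1169, 0.0255 and -0.0838 with a site and 0.0660, 0.0130 and -0.0730 with none. In the shortest class they were -0.0514, 0.0293 and 0.0604 with a site and -0.0808, -0.0055 and 0.0670 with none. Libraries 1 and 3 thus moved with UTR length in genes with and without a site. Without DKO library 1 the median of genes with a miR-23 site was -0.03, and without DKO library 3 it was 0.05. For miR-27 the values without the same libraries were -0.01 and 0.05. These leave-out medians were not split by UTR length, and none is given for genes with no site.

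**Figure D3:**
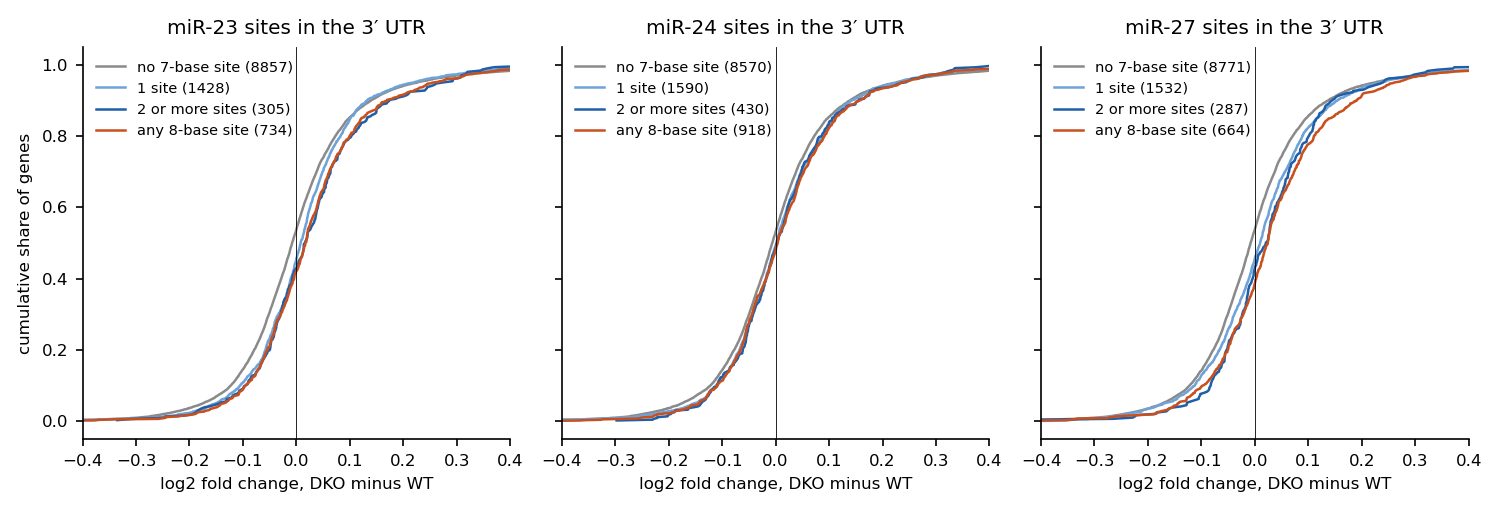
Cumulative share of genes (y axis) by log2 fold change of DKO over WT (x axis), for genes with no, 1 or at least 2 seed sites in the 3′ UTR and for genes with an 8-base site. The curves for miR-23 and miR-27 site genes lie slightly to the right of those with no site, by medians of at most 0.03 on the log2 scale.

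The genes with a site and the smallest p on the higher side included immune genes. For miR-23 they were Ppif, Glrx, Rsad2, Maf, Gpr55 and Fgl2. Glrx, the glutaredoxin that reverses protein glutathionylation, was at 41.9, 56.1 and 56.6 RPKM in DKO and 38.2, 38.7 and 34.0 RPKM in WT, with no overlap and a limma adjusted p of 0.86. Gpr55, a lysophospholipid receptor, was at 10.6, 11.6 and 9.12 RPKM in DKO and 8.40, 7.31 and 5.66 RPKM in WT. For miR-24 they were Oas2, Zwint, Stc2, Pvrl2, Sdc3 and Sesn2, of which Zwint, a kinetochore protein with 2 miR-24 sites and 1 miR-27 site, was at 21.2, 20.1 and 22.5 RPKM in DKO and 16.6, 18.4 and 17.8 RPKM in WT. Sesn2, a stress-induced inhibitor of mTORC1 with a site for each family, was at 7.46, 11.01 and 7.25 RPKM in DKO and 5.94, 6.01 and 5.13 RPKM in WT. For miR-27 they were Dffb, Ccdc28b, Ifit3, Ppif, Rsad2 and I830012O16Rik, the last of which is a close relative of Ifit3 with the same site sequence, so reads of the pair may be split between them.

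Of the lists read here, interferon response genes had the most members with DKO wholly above WT. None of the 50 tested members passed the threshold in either direction, but 44 were above 0, 24 had DKO libraries wholly above WT (against 3.32% of all genes) and none wholly below. An unadjusted p under 0.05 was found for 18 on the higher side (36%) and 0 on the lower side, against 1.4% and 0.807% of all genes. The gene lists were chosen with earlier results of these data known, so such counts are a description and no test. The median log2 fold change was 0.24, against -0.0041 over all genes. Among the antiviral effectors, Mx1, a dynamin-like GTPase that traps viral ribonucleoproteins, was at 12.3, 9.79 and 12.7 RPKM in DKO and 6.27, 4.34 and 4.71 RPKM in WT (log2 fold change 1.12, 95% interval 0.65 to 1.59, limma adjusted p = 0.23). Oas2, which makes the oligoadenylates that activate RNase L, was at 11.6, 9.85 and 10.95 RPKM in DKO and 5.82, 4.35 and 5.78 RPKM in WT. Ifit3, which acts with the RNA-binding protein Ifit1, was at 12.9, 10.4 and 18.2 RPKM in DKO and 7.54, 6.35 and 6.91 RPKM in WT. In all 3 genes the lowest DKO library was above the highest WT library.

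Rsad2, the antiviral radical-SAM enzyme viperin, was at 4.37, 3.68 and 4.66 RPKM in DKO and 2.69, 2.19 and 2.22 RPKM in WT. Isg15, a ubiquitin-like modifier, was at 48.6, 57.7 and 82.6 RPKM in DKO and 42.1, 37.8 and 37.7 RPKM in WT, highest in DKO library 3. Among the sensors of nucleic acids, Zbp1 was at 136, 127 and 129 RPKM in DKO and 113, 107 and 93.2 RPKM in WT. Ifih1 and Dhx58 had log2 fold changes of 0.32 and 0.40 and no overlap. Among the transcription factors, Irf7, which amplifies type I interferon production, was at 60.7, 57.1 and 71.5 RPKM in DKO and 53.8, 41.5 and 42.9 RPKM in WT. Stat2 had a log2 fold change of 0.27, and Irf1 of -0.0023. Limma adjusted p-values of the genes in this paragraph were 0.94 or above.

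Within the list, the guanylate-binding proteins and immunity-related GTPases, a group singled out after its values were seen, did not share this pattern of separate groups. None of 12 (Gbp2, Gbp3, Gbp4, Gbp5, Gbp6, Gbp7, Gbp9, Irgm1, Irgm2, Igtp, Iigp1 and Ifi47) had separate groups, and their log2 fold changes ran from -0.16 to 0.15. The other 38 members had a median of 0.33, and 24 had DKO wholly above WT. Relative to the WT mean, the list's median was 0.31, 0.13 and 0.32 in DKO libraries 1, 2 and 3, so that library 2 was the nearest to WT. The count of 18 was 12 without DKO library 1, DKO library 3 or WT library 3, 11 without WT library 2 and 25 without DKO library 2. Measured against the same WT libraries, the list's median was 0.49 in miR-27 Tg, 0.18 in miR-24 Tg and -0.16 in miR-23 Tg. In cluster Tg it was 0.45. Mx1 and Ifit3 were higher there by log2 differences of 1.604 and 1.61 (limma adjusted p = 0.00027 and 0.00014). The 18 myeloid markers with an entry summed to 364 to 446 RPKM in DKO and 364 to 387 RPKM in WT. Of the 14 tested, 10 were above 0 and 4 below, and 1 had separate groups (7.14%, against 3.32% of all genes). The 18 B cell markers with an entry summed to 404 to 536 RPKM in DKO and 386 to 438 RPKM in WT. Of the 17 tested, 12 were above 0 and 5 below, and 0 had separate groups. H2-Aa was at 16.1, 33.5 and 46.8 RPKM in DKO and 16.9, 28.8 and 15.7 RPKM in WT. H2-Aa, H2-Ab1, H2-Eb1 and Cd74 each had DKO libraries 2 and 3 above all WT libraries. The part of myeloid and B cells in the interferon values was not tested. Ctss and Cst3 made up most of the myeloid sum. Mpeg1, a macrophage perforin, was the myeloid marker with separate groups, at 0.675, 0.784 and 1.12 RPKM in DKO and 0.438, 0.576 and 0.501 RPKM in WT. Tyrobp and Fcer1g, signalling adaptors of myeloid and NK cells, were at 3.62, 8.94 and 8.14 and at 6.51, 15.1 and 18.96 RPKM in DKO. In WT they were at 3.39, 5.06 and 4.13 and at 6.62, 10.97 and 8.74 RPKM, so that DKO libraries 2 and 3 were above all WT libraries. S100a8 and S100a9 were listed at 0 in all 3 DKO libraries, and Csf1r and Cd14 were at or below 0.152 RPKM in all 6 libraries. Itgax was at 0.106, 0.262 and 0.199 RPKM in DKO and 0.0306, 0.0288 and 0.120 RPKM in WT. Siglech was at 0.0460, 0.483 and 0.423 RPKM in DKO and 0.0533, 0 and 0.118 RPKM in WT. Itgax and Siglech were thus also higher in DKO libraries 2 and 3 than in any WT library.

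**Figure D4:**
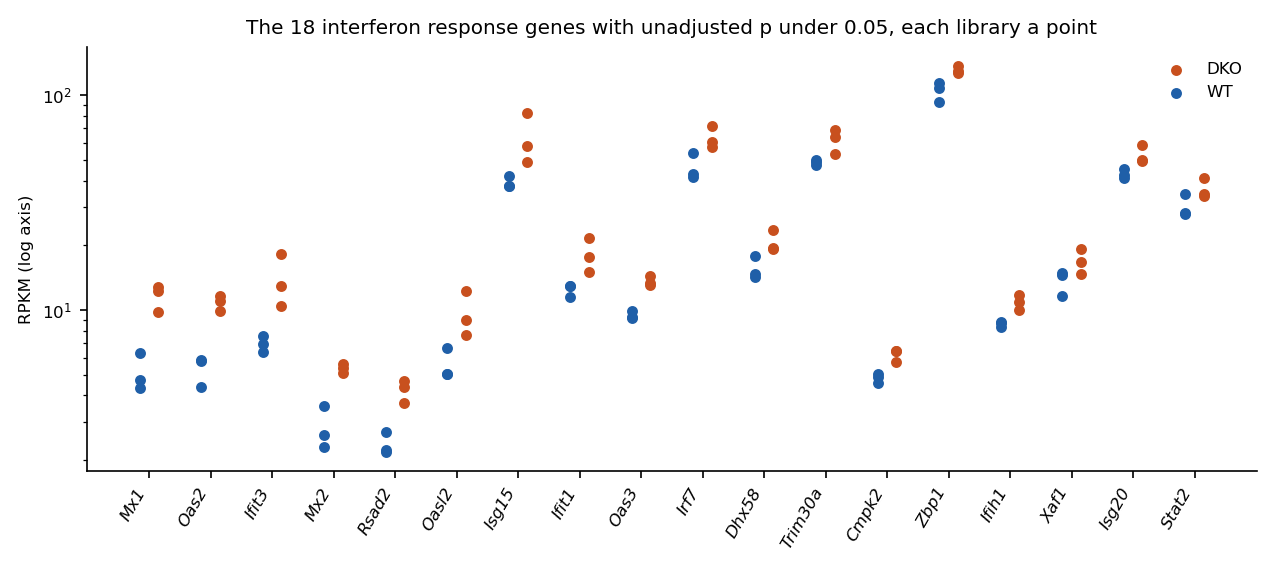
RPKM on a log axis (y) of the 18 interferon response genes with an unadjusted p under 0.05 (x), with each library a point. DKO (orange) lies above WT (blue) without overlap in all but Xaf1 and Stat2.

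No Treg identity gene passed the test. Foxp3, the lineage transcription factor, was at 348, 323 and 312 RPKM in DKO and 334, 287 and 336 RPKM in WT, with a 95% interval of the log2 fold change from -0.31 to 0.39. Il2ra, which encodes the sorting marker CD25, was at 232, 189 and 241 RPKM in DKO and 208, 203 and 254 RPKM in WT. Ctla4, the inhibitory receptor, and Ikzf2, the factor Helios, had log2 fold changes of 0.09 and -0.09, with overlapping libraries. Of 34 tested members of this list, 19 were above 0 and 15 below. Nrp1, a surface marker of thymus-derived Treg cells, was the member with the smallest p, at 54.7, 44.6 and 39.8 RPKM in DKO and 63.4, 58.2 and 58.2 RPKM in WT (log2 fold change -0.38, limma adjusted p = 1).

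No effector Treg gene passed the test, but most had values on the higher side. Of 40 tested members, 31 were above 0, against 47.9% of all genes, and 8 had DKO wholly above WT and 1 wholly below, against 3.32% and 2.73% of all genes. The median log2 fold change was 0.14. Maf, a transcription factor that drives Il10, was at 52.0, 71.0 and 69.8 RPKM in DKO and 45.01, 48.0 and 44.2 RPKM in WT (log2 fold change 0.47, limma adjusted p = 1). Fgl2, a secreted suppressive mediator, was at 10.7, 14.9 and 15.3 RPKM in DKO and 10.2, 8.07 and 8.90 RPKM in WT. Icos, the costimulatory receptor, was at 98.1, 132 and 109.7 RPKM in DKO and 88.8, 84.9 and 93.2 RPKM in WT. The 3 genes had separate groups, with DKO library 1 the nearest to WT in each.

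Irf4, a factor of effector differentiation with a miR-23 and a miR-27 site, was at 41.6, 46.7 and 42.8 RPKM in DKO and 35.9, 37.7 and 40.4 RPKM in WT. Gzmb, the cytotoxic protease, was at 21.8, 34.6 and 23.2 RPKM in DKO and 12.02, 14.99 and 11.4 RPKM in WT. Lag3 was at 54.3, 81.8 and 86.5 RPKM in DKO and 54.3, 58.4 and 40.0 RPKM in WT, with DKO library 1 inside the WT range. The 8 effector members with an unadjusted p under 0.05 (20%, all on the higher side, against 1.4% of all genes) became 3 without DKO library 2 and 4 without WT library 3. The median of the list relative to the WT mean was -0.02, 0.33 and 0.11 in DKO libraries 1, 2 and 3. NK cell markers, which include genes also expressed by effector T cells, had a median of 0.25 over 7 tested members. Of these, 1 had separate groups (14.3%, against 3.32% of all genes). The 11 NK markers with an entry summed to 42.2 to 58.7 RPKM in DKO and 42.8 to 48.2 RPKM in WT. The part of NK cells in the effector values was not tested. Klrd1 was the NK marker with separate groups, at 0.305, 0.978 and 0.650 RPKM in DKO and 0.265, 0.111 and 0.130 RPKM in WT. Ncr1 was at 0.454, 1.10 and 0.553 RPKM in DKO and 0.417, 0.495 and 0.457 RPKM in WT, and Klrb1c at 0.941, 2 and 1.58 RPKM in DKO and 0.869, 1.46 and 1.15 RPKM in WT, both highest in DKO library 2. Klra8 and Klra4 were at 0 in all but DKO library 1.

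No gene of the helper T cell lineage lists passed the test either. Of 19 tested Th17 genes, 13 were above 0, with a median of 0.18. Il21, a cytokine of follicular and Th17 cells, was at 5.09, 6.47 and 4.38 RPKM in DKO and 2.57, 2.68 and 1.32 RPKM in WT (log2 fold change 1.14, limma adjusted p = 1). Il23r was at 1.65, 2.56 and 2.86 RPKM in DKO and 1.28, 1.73 and 1.21 RPKM in WT, with DKO library 1 inside the WT range. Of 21 Th1 genes 17 were above 0, with a median of 0.13. In the overexpressing groups, against the same WT libraries, the Th17 median ran from 0.06 in miR-23 Tg to 0.82 in miR-27 Tg. The Th1 median ran there from 0.20 in miR-23 Tg to 0.73 in miR-24 Tg. Cxcr5, which guides follicular T cells into B cell zones, was at 19.9, 16.7 and 21.9 RPKM in DKO and 26.7, 26.1 and 21.4 RPKM in WT, with DKO library 3 inside the WT range. Of the markers of conventional CD4 activation, 7 of 7 tested were above 0, against 47.9% of all genes, with a median of 0.17 and 0 called. Relative to the WT mean, their median was 0.22, 0.61 and 0.19 in DKO libraries 1, 2 and 3. In the overexpressing groups their median log2 fold change over the same WT libraries ran from 0.51 in miR-24 Tg to 0.99 in cluster Tg. Il2 was at 1.37, 2.31 and 2.11 RPKM in DKO and 0.712, 1.54 and 0.740 RPKM in WT, with DKO library 1 inside the WT range. The part of conventional CD4 T cells in these values was not tested.

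Among resting T cell genes, 8 of 23 were above 0 and 15 below, with a median of -0.03 and 0 called. In the overexpressing groups the list's median, against the same WT libraries, ran from -0.48 in cluster Tg to -0.10 in miR-23 Tg. Dapl1 was at 4.54, 6.52 and 4.65 RPKM in DKO and 7.81, 7.03 and 13.8 RPKM in WT. S1pr1, the receptor that lets T cells leave lymph nodes, was at 118, 117 and 104 RPKM in DKO and 122, 131 and 140.1 RPKM in WT. Both genes had DKO wholly below WT, with a limma adjusted p of 1 in each.

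TGF-beta signalling genes had 23 of 29 members above 0, but a median of only 0.03 and 0 called members. Itgae, a TGF-beta-induced integrin, was at 82.8, 89.6 and 77.9 RPKM in DKO and 87.1, 58.5 and 44.0 RPKM in WT, and Id3 at 57.4, 70.6 and 79.7 RPKM in DKO and 76.5, 83.3 and 94.4 RPKM in WT. Cytosolic ribosomal protein genes lay on the lower side: 63 of 70 were below 0, with a median of -0.15, 0 called and 2 with DKO wholly below WT (2.73% of all genes). Their median relative to the WT mean was -0.31, -0.17 and 0.04 in DKO libraries 1, 2 and 3, so library 3 did not share the lower level. Many have near-identical pseudogene copies, between which reads can be split. Of 24 cholesterol synthesis genes, 19 were below 0, with a median of -0.11 and 3 wholly below WT. Lists of NF-kB, T cell receptor signalling, glycolysis, glutamine metabolism, apoptosis, migration receptor and microRNA machinery genes had medians from -0.0024 to 0.03 and 0 called members.

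**Figure D5:**
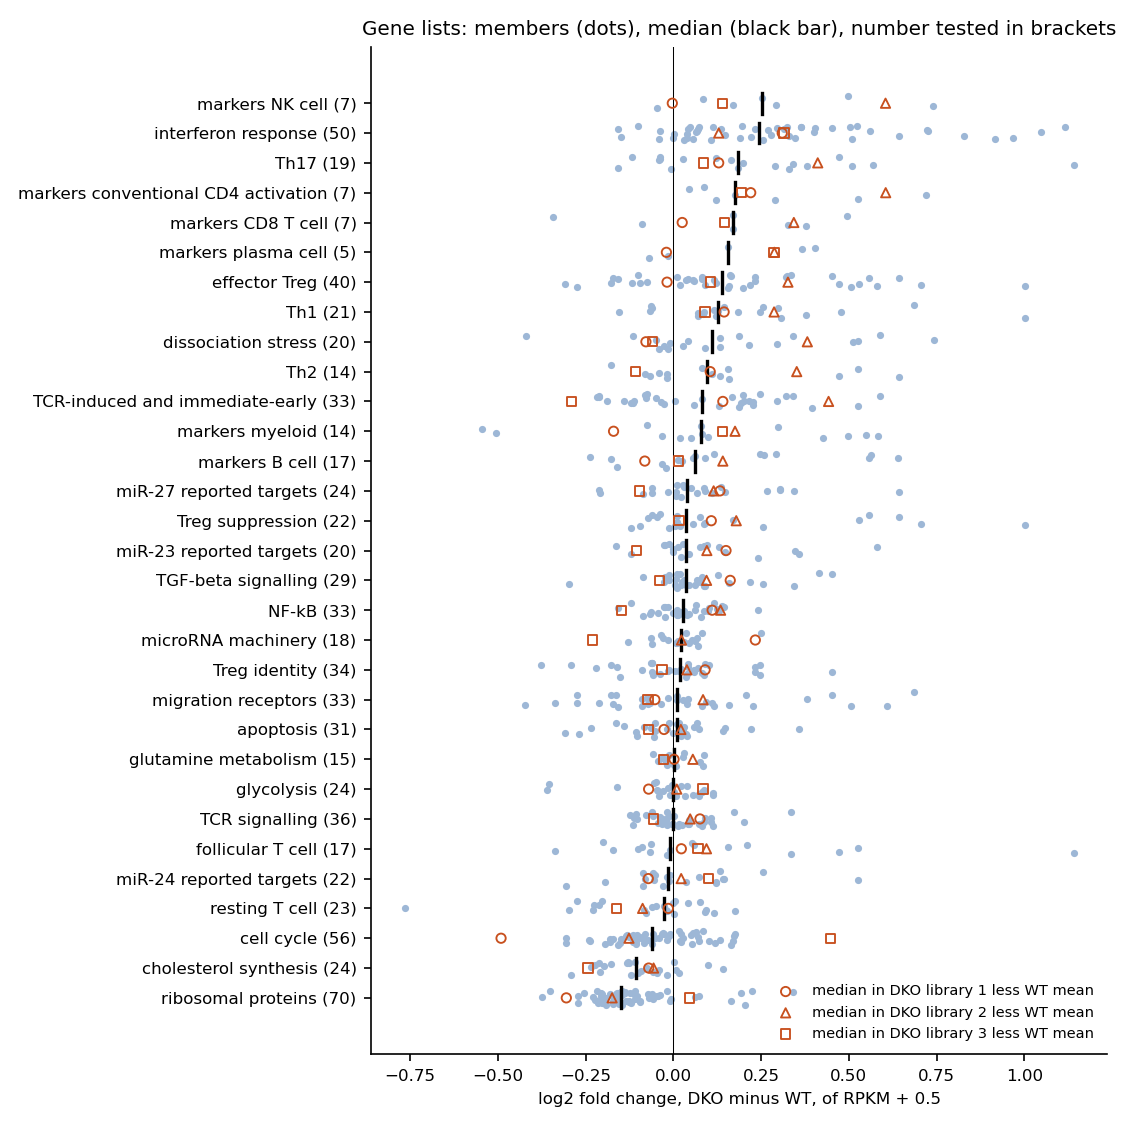
Log2 fold change of DKO over WT (x axis) of the tested members of each gene list (y axis, number tested in brackets), with the list's median as a black bar and its median in each DKO library less the WT mean as open symbols. Interferon response genes have all 3 DKO libraries on the right of 0. So do the Th1, Th17, Treg suppression, follicular T cell, CD8 T cell marker and conventional CD4 activation lists. The cell cycle and ribosomal protein medians differ in sign between DKO libraries.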

How the data were processed

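Total RNA of sorted Treg cells was made into TruSeq libraries and sequenced on an Illumina HiSeq instrument, per the labels' protocols. The authors deposited 1 table of RPKM values for the 18 libraries, and STAR 2.2.0c, HOMER and the build mm10 (GRCm38) are named per the submitters' processing notes. The annotation and the strand setting of the counting are not given in the sources used here. Of 23953 entries, 4 with a repeated symbol were left out, and 27 had symbols turned into dates. Depth was estimated from the steps between low RPKM values of 5583 genes with 1 annotated transcript. Entries at 1 RPKM or more in at least 3 libraries were fitted as log2(RPKM + 0.5) with limma 3.58.1 (R 4.3.3, mean-variance trend) over all 18 libraries, so the 6 groups share one estimate of the spread. Calls are two-sided with a Benjamini-Hochberg adjusted p under 0.05 over the 11520 entries. The model was tested on simulated data. For gene positions and UTRs, 22635 symbols matched GENCODE M21 as written and 903 matched through a synonym. Tables, exact tests and figures used Python 3.11.15, pandas 2.3.3, scipy 1.17.1 and matplotlib 3.10.9.

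The members and the gene lists were chosen with earlier results of these data known. Genes named in the text are those called with separate groups, the 8 with the smallest p in a direction where fewer than 5 were called (small RNA, predicted, clone and antigen receptor entries left out), up to 4 members of each list, a fixed panel, up to 6 genes per seed, the neighbours of the clusters, and further members of the lists, which were chosen after their values were seen. Alternatives changed the pseudocount, the filter, the scaling, the libraries in the fit, the library weights and the replicate block. Some named genes are not reported here.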

Additional observations from a re-analysis of the deposited data

How the results depend on the processing

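The 2 higher and 0 lower genes stayed 2 and 0 with a pseudocount of 0.1 or 1, no filter, a filter of 5 RPKM, median-of-ratios scaling, and, chosen after seeing the data, sex as a covariate or small RNA entries left out. With only DKO and WT in the fit there were 1 higher (Mir1940) and 2 lower (Mir3074-1 and Mir1929). Array weights gave 162 higher and 109 lower, and gene-by-gene weights, chosen after seeing the data, 15 and 4. The weight estimate did not converge and gave DKO library 2 a weight of 17.5, the highest of the 18. The cause of these changes was not tested.

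With the replicate number as a block 1 gene was higher (Arpc1a), and 2010111I01Rik had a limma adjusted p of 0.053. The block with only DKO and WT, chosen after seeing the data, gave 0 higher and 1 lower (Mir3074-1). The labels do not say that a shared number pairs libraries. Deviations of same-numbered DKO and WT libraries correlated at 0.068, 0.059 and 0.142, and WT library 1 was the closest match to DKO library 1 but also to DKO library 2.

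Leaving out each library gave 1 to 2 higher and 0 to 1 lower genes. Counts fell to 1 higher without DKO library 1, WT library 2 or WT library 3, Mir27a was lower without WT library 3, and Dclk2 took the place of 2010111I01Rik without DKO library 3. Among panel genes that missed the threshold, the log2 fold change changed sign in Bcl2l11 (0.069 with array weights, 0.049 gene by gene, -0.15 to 0.12 leaving out a library) and Zbtb10 (0.11, 0.071, -0.27 to 0.19). It also did so on leaving out a library in Foxp3 (-0.034 to 0.081), Gata3 (-0.011 to 0.24), Il2ra (-0.080 to 0.096), Rel (-0.17 to 0.36) and Runx1 (-0.033 to 0.072). The table holds RPKM, so depth is an estimate and no counting interval is given.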

Other observations

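A stretch of chromosome 3 stood out after its values were seen. Of 16 genes with an unadjusted limma p under 0.001, 15 have a position, and those within 1 Mb of each other lay on chromosome 13 (2010111I01Rik, Gm16907 and Mir3074-1), on chromosome 16 (Mx1 and Mx2, both interferon-induced) and on chromosome 3 (Dclk2, Cd1d2 and Lrrc71). The chromosome 3 stretch spans 962 kb from the start of Dclk2 to the end of Lrrc71 (chr3:86786151-87748625 in GRCm38) and holds 8 tested genes. Fcrl1, an Fc receptor-like gene of B cells, was at 9.05, 7.23 and 8.30 RPKM in DKO and 6.42, 4.56 and 6.60 RPKM in WT. The 3 named genes were chosen by their p and set the bounds of the stretch, so the counts here are no test of the region. Fcrl1 and the 3 named genes had DKO wholly above WT, against 3.32% of all genes. The other 4 overlapped, among them Cd1d1 at 20.9, 17.5 and 19.6 RPKM in DKO and 23.8, 21.4 and 19.2 RPKM in WT, and Etv3 at 36.1, 33.0 and 27.1 RPKM in DKO and 34.8, 33.6 and 29.7 RPKM in WT.

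Some short RNA entries had separate groups and are given as values. Snora65, a box H/ACA small nucleolar RNA, was at 307, 329.9 and 346 RPKM in DKO and 571, 573 and 509.9 RPKM in WT. Snord37, a box C/D small nucleolar RNA, was at 12065, 9605 and 6487 RPKM in DKO and 4765, 3587 and 2816 RPKM in WT. Neither passed the threshold, with limma adjusted p of 0.19 and 1.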
